A study of Arabidopsis thaliana with 8 samples.

Results

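The stretch of Arabidopsis thaliana chromosome 1 from 23 to 26 Mb (TAIR10) holds VIM2 (AT1G66050) and VIM4 (AT1G66040), and its open chromatin was described here from ATAC-seq peak lists of 8 shoot libraries. The nuclear peaks of the 8 lists were joined wherever they overlapped by at least 1 bp, which gave 24103 regions, and the 681 regions with their middle in this 3 Mb interval were taken as its members. The plants were descendants of 2 recombinant inbred lines, RIL149 and RIL50, both from a cross of the accessions Ler and Cvi, that were propagated further in separate lineages and that the study chose because their rates of spontaneous CG methylation change contrast. RIL149 was sampled at generation 10 (lineages 1 and 2) and generation 3 (lineages 1 and 2), and RIL50 was sampled in the same way, with 1 library for each line, generation and lineage. All plants were raised alike, on plates kept at 25 °C under a day of 16 h light and a night of 8 h, and were 7 to 9 days old. No treatment or transgene is labelled, and about 200 mg of shoot went into a library. The labels do not give which parental allele each line carries in the interval, and they do not say whether a library is of 1 plant or a pool. The p-values below therefore measure the spread between these libraries.

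VIM proteins, also called ORTHRUS proteins, bind hemimethylated CG sites through an SRA domain, carry RING domains of ubiquitin ligases, and help the methyltransferase MET1 copy CG methylation after DNA replication. VIM2 and VIM4 are neighbouring and closely related genes of this family, here 2582 bp apart. In ATAC-seq the transposase Tn5 cuts where DNA is not wrapped in nucleosomes, so a peak marks a stretch of accessible chromatin, most often beside the start or end of a gene.

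The 8 lists differed in length, and this bears on every count of shared regions. RIL149 lists held 19542 and 21540 nuclear peaks at generation 10 and 17132 and 13186 at generation 3, in lineages 1 and 2, and RIL50 lists held 18896 and 16952 at generation 10 and 19193 and 18447 at generation 3. The RIL149 generation 3 lineage 2 list is the shortest. Read totals are not in the lists, so the depth behind a peak is unknown, and a missing peak says only that none passed the authors' threshold. The fold of a peak is the authors' own enrichment over the local background. It describes a peak within its list. Folds of the lines and generations are set side by side as a description, with no test of a difference, since the lists differ in length.

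No library had a peak at either end or in the body of VIM2 or VIM4. Both genes lie in a stretch without regions from 24582368 to 24598521 on chromosome 1, which is 16.154 kb long and ranks 18 among 680 gaps between neighbouring members, whose median is 2544 bp. Between regions held by all 8 libraries the stretch around the 2 genes is 59.936 kb long, from 24555337 to 24615272, and ranks 5 of 275 such gaps (median 5950 bp). Of 745 protein-coding genes in the interval, 242 (32.5%) lacked peaks at their ends in every library, against 28.0% of 27444 genes over the genome. A gene end here means 1000 bp outside to 200 bp inside either end of the gene. How the authors treated reads that match both copies is not given in the sources used here, so the absence of peaks over this gene pair is uncertain.

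The peak nearest to VIM4 was found in 1 lineage of 1 line at both generations. It lies at 24582231 to 24582367, 137 bp wide. CYP96A14P, whose symbol is that of a cytochrome P450 pseudogene, lies between it and VIM4, 751 bp from the peak. RIL50 lineage 1 had it with a fold of 2.74 at generation 10 and 4.32 at generation 3, and the other 6 libraries had no peak there. From VIM4 it is 1373 bp away at generation 10 and 1372 bp away at generation 3. In RIL149 the peak nearest to VIM4 was 11761 and 11762 bp away at generation 10 and 28504 and 28568 bp away at generation 3, and in RIL50 lineage 2 it was 11769 bp away at generation 10 and 28200 bp away at generation 3.

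The peak nearest to VIM2 was shared between lines but not by all libraries. It lies at 24598522 to 24598717, 196 bp wide, at AT1G66070. RIL149 had it at generation 10, with folds of 3.96 in lineage 1 and 3.61 in lineage 2, and had no peak there at generation 3. RIL50 had it at generation 10, with folds of 3.58 and 3.74 in lineages 1 and 2, and at generation 3 in lineage 1 with a fold of 4.53. It was 5741 to 5768 bp from VIM2 in these 5 libraries, and in the other 3 the nearest peak was 22180 to 22607 bp away. The 3 libraries without it include the shortest list, with 13186 nuclear peaks. Also without it were RIL149 generation 3 lineage 1 and RIL50 generation 3 lineage 2, with 17132 and 18447. The RIL50 generation 10 lineage 2 list, with 16952, had the peak. Whether list length accounts for the missing peaks was not tested.

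Within 50 kb of the VIM pair lay 28 regions, of which 12 were held by all 8 libraries, 4 by 1 library and 12 by 2 to 7 libraries. RIL149 libraries held 18.75 ± 5.56 of them and RIL50 libraries 20.25 ± 1.5 (SD, n = 4 each). The spread within RIL149 was wider than the difference between the lines. The nearest region common to all 8 libraries on the lower side is at 24554915 to 24555336 and had folds of 2.79, 3.68, 3.91 and 3.10 in RIL149 (generation 10 lineages 1 and 2, then generation 3 lineages 1 and 2) and of 3.63, 3.04, 3.74 and 3.47 in RIL50 in the same order. On the higher side it is at 24615273 to 24615632, with 6.11, 5.97, 4.07 and 3.62 in RIL149 and 5.68, 6.98, 7.93 and 5.98 in RIL50. A region at 24559010 to 24559402 was held by both generation 10 libraries of RIL149, with folds of 3.83 and 2.59, and by no other library.

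**Figure D1:**
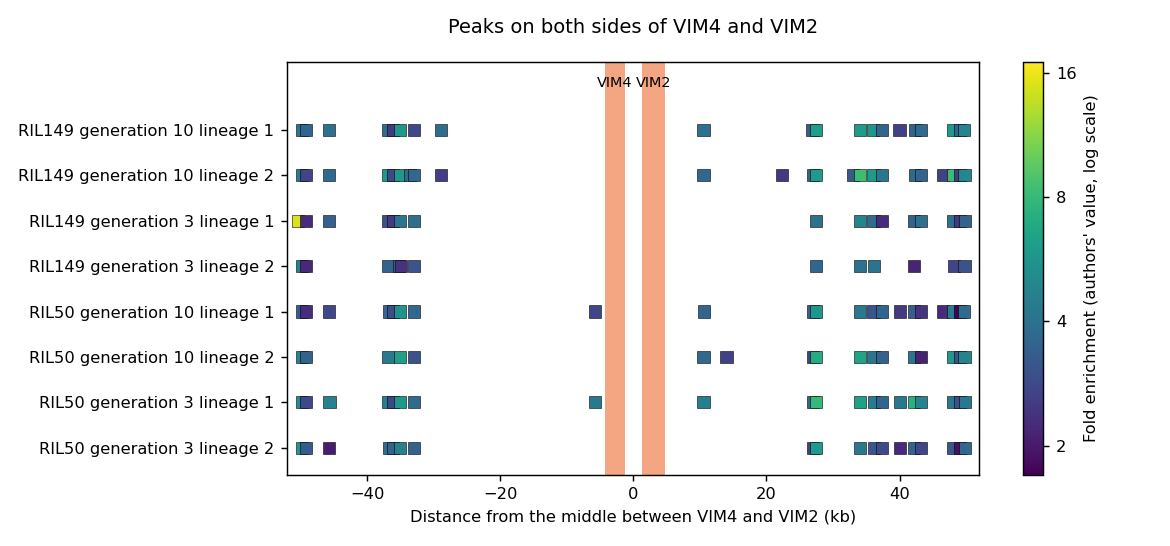
Peaks of each library (squares, coloured by the authors' fold on a log scale) by distance in kb from the middle between VIM4 and VIM2, whose gene bodies are the shaded bands. No square lies on either gene, and the square nearest to VIM4 is present only in RIL50 lineage 1, at generations 10 and 3.

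Across the interval 14 regions were line-specific, meaning that all 4 libraries of one line and none of the other had a peak. Of these, 6 belonged to RIL149 and 8 to RIL50. The RIL149-specific regions are 0.881% of the 681 members, against 0.705% of all 24103 regions (170) and 0.566% of those on the rest of chromosome 1. The RIL50-specific regions are 1.17% of members, against 0.888% of all regions (214) and 0.690% on the rest of chromosome 1. Both shares are near the background. With lists of equal length (13186 peaks each), 3 of the 14 stayed line-specific, and the shares were below the background: 0.655% of members against 1.10% of all regions for RIL149 and 1.09% against 1.297% for RIL50. With a −log10 q of at least 5, 9 of the 14 stayed so. The 3 that stayed with lists of equal length lie near AT1G62530, near RLM1 and over AT1G67105. Those lost with the q filter lie at AT1G63340, MDAR6 and PAO4 and near WRKY67 in RIL149, and near FAS1 in RIL50. Line-specific below means so in the lists as deposited. In 1 region alone the exact permutation test over 4 and 4 libraries cannot give p below 0.0286, so no region could pass an adjustment over 24103, and these counts are a description.

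Without the RIL149 generation 3 lineage 2 library, the number of RIL149-specific regions was 19, or 2.79% of members, against 1.63% of all regions, and that of RIL50-specific regions was 8. This follows from 13 members that the other 3 RIL149 libraries held and no RIL50 library did (1.91%, against 1.02% of all regions): in all 13 the library without a peak was RIL149 generation 3 lineage 2, which was also the one without in 223 of 247 such regions over the genome. Their folds ranged from 2.11 to 5.37 with a median of 3.16, and 8 of the 13 lay at gene ends. The mirror image, 3 RIL50 libraries and no RIL149 library, was found in 4 members (0.587%, against 0.933% of all regions), with folds of 1.82 to 3.63.

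The line-specific region with by far the highest fold was specific to RIL50 and lies at 23148735 to 23149178, 367 bp from AT1G62530. Its folds were 13.2 and 18.3 at generation 10 and 20.5 and 14.9 at generation 3 (lineages 1 and 2). These are strong peaks in their lists, at percentiles 96.5 to 98.6, and the lowest −log10 q was 160.6. In RIL149, 93.2% to 97.1% of the peaks of each list had a fold at or under 13.2, and the RIL149 region nearest to this place was 1084 bp away.

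The other 13 line-specific regions had lower folds. The next highest in RIL50 lies at 25057953 to 25058490 over AT1G67105, a non-coding RNA gene, 3088 bp from LBD40, a gene of the LOB domain family of transcription factors. It had folds of 5.54 and 5.57 at generation 10 and 8.24 and 5.29 at generation 3. All 4 RIL50 values are above the median fold of peaks in the interval in their own list.

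**Figure D2:**
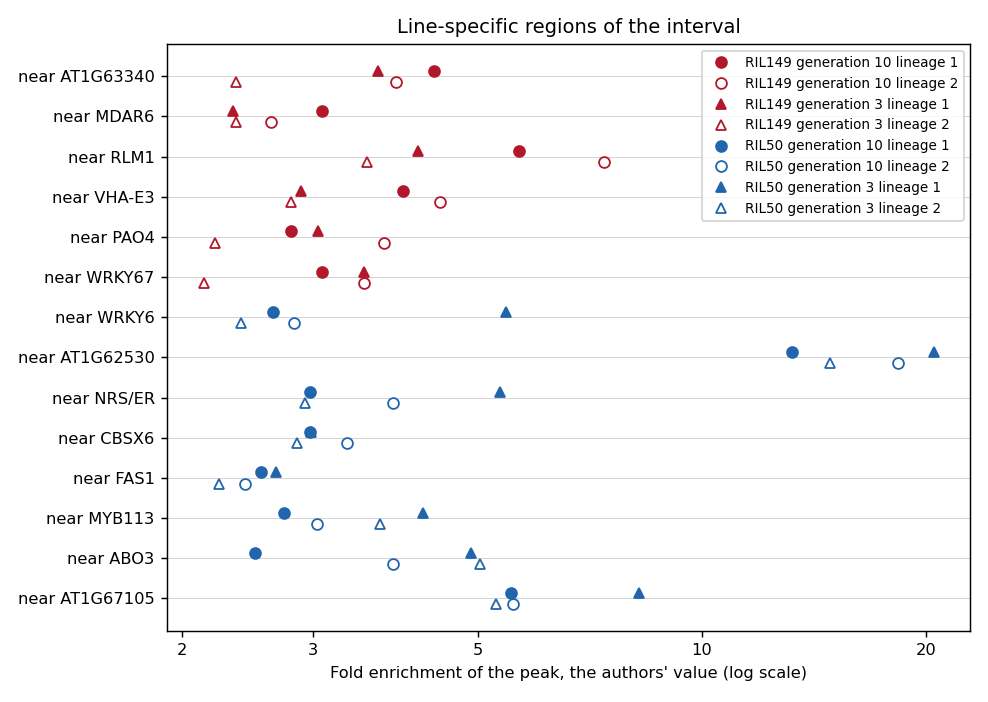
Fold enrichment (the authors' value, log axis) of the 14 line-specific regions in the 4 libraries that hold each, with RIL149-specific regions above RIL50-specific ones, circles for generation 10, triangles for generation 3, filled for lineage 1 and open for lineage 2. The region near AT1G62530 stands at 13.2 to 20.5, and the lowest values of the RIL149-specific regions are mostly those of generation 3 lineage 2.

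Transcription factor genes and a resistance gene were among the neighbours of the remaining line-specific regions. In RIL149 the region at 23783821 to 23784330 lies 371 bp from RLM1, a TIR-type immune receptor gene for resistance to the blackleg fungus, with folds of 5.68 and 7.38 at generation 10 and 4.15 and 3.54 at generation 3. A region held by 1 RIL50 library, generation 3 lineage 1 with a fold of 1.92, lies 127 bp from it. All 8 libraries had some peak at an end of RLM1. The RIL149-specific region at 24831169 to 24831510 lies outside genes, 1508 bp from WRKY67, and had folds of 3.09 and 3.52 at generation 10 and 3.52 and 2.14 at generation 3. Its neighbour on the map, 14.625 kb away at 24846136 to 24846486, is specific to RIL50 and lies 1833 bp from ABO3, a WRKY gene of abscisic acid responses. It had folds of 2.51 and 3.85 at generation 10 and 4.89 and 5.03 at generation 3. These 2 regions are the closest pair of line-specific members, with 3 other members between them, and they belong to opposite lines.

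A further WRKY gene, WRKY6, known from leaf senescence and phosphate supply, lies 344 bp from a RIL50-specific region at 23015988 to 23016224, which has a region held in RIL149 218 bp away. Its folds were 2.65 and 2.83 at generation 10 and 5.46 and 2.40 at generation 3, so the value of generation 3 lineage 1 stands above the other 3. MYB113, an activator of anthocyanin synthesis, overlaps a RIL50-specific region at 24754371 to 24754657, with 2.74 and 3.04 at generation 10 and 4.22 and 3.69 at generation 3. A region held in RIL149 lies 437 bp from it, and a peak at an end of MYB113 was present in 3 RIL149 and 4 RIL50 libraries, so the gene as a whole was not specific to a line.

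Genes of enzymes and of a proton pump lay at 3 RIL149-specific regions and 1 RIL50-specific region. The RIL149-specific region at 23830049 to 23830281 overlaps VHA-E3, a subunit of the vacuolar proton pump, with folds of 3.96 and 4.44 at generation 10 and 2.89 and 2.81 at generation 3. That at 23729810 to 23730056 overlaps MDAR6, which regenerates ascorbate, with 3.09 and 2.64 at generation 10 and 2.35 and 2.36 at generation 3. That at 24489456 to 24489791 overlaps PAO4, a polyamine oxidase, with 2.80 and 3.74 at generation 10 and 3.05 and 2.22 at generation 3. In VHA-E3 and MDAR6 both generation 10 values are above both generation 3 values, and in PAO4 the generations overlap. The RIL50-specific region at 23344574 to 23344811 lies 453 bp from NRS/ER, an enzyme of UDP-rhamnose synthesis, with 2.98 and 3.85 at generation 10 and 5.35 and 2.93 at generation 3.

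Regions held by the opposite line lay within 1 kb of 7 of the 14: those near RLM1 (127 bp), WRKY6 (218 bp), ABO3 (311 bp), MDAR6 (366 bp), FAS1 (408 bp), MYB113 (437 bp) and PAO4 (561 bp). The number of libraries of the opposite line that held the neighbouring region ranged from 1 (near RLM1) to 4 (near MDAR6). For the other 7 line-specific regions this distance was 1084 to 8004 bp.

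The last 3 line-specific regions had folds below the median of their own list in every library that held them. So did those at MDAR6, VHA-E3, PAO4 and MYB113 and the one near WRKY67. The RIL149-specific region at 23493800 to 23494245 overlaps AT1G63340, next to the immune receptor gene AT1G63350, with folds of 4.37 and 3.89 at generation 10 and 3.67 and 2.36 at generation 3. The RIL50-specific region at 24259418 to 24259812 lies 67 bp from CBSX6, a gene of a CBS domain protein, with 2.98 and 3.34 at generation 10 and 2.99 and 2.86 at generation 3. The RIL50-specific region at 24326733 to 24327053 lies outside genes, 2641 bp from FAS1, the large subunit of chromatin assembly factor 1, with 2.56 and 2.43 at generation 10 and 2.68 and 2.25 at generation 3. The ends of FAS1 itself carried a peak in every library, with folds of 4.30, 5.00, 4.93 and 2.58 in RIL149 and 5.49, 7.08, 10.3 and 6.25 in RIL50.

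The 14 line-specific regions had a median width of 339 bp and a median fold of 3.43, against 242 bp and 2.88 for the 42 other members with peaks in 4 libraries. Of the 14, 10 lay at gene ends and 4 outside genes. At the level of genes, end peaks were found in all RIL149 and no RIL50 libraries for AT1G63340, AT1G63350 and VHA-E3 (0.403% of 745 genes, against 0.262% over the genome). AT1G63340 and AT1G63350 are both counted through the region at 23493800 to 23494245. In all RIL50 and no RIL149 libraries they were found for AT1G62530, NRS/ER and XTH17, a cell wall xyloglucan enzyme (0.403%, against 0.434%).

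Neighbouring line-specific regions were 14.625 to 429.136 kb apart, and the longest such gap runs between the regions at VHA-E3 and CBSX6, with 81 members in between. The last of the 14 ends at 25058490, and 223 of the 681 members lie above it. That position is set by the regions themselves, and of the 13 members held by 3 RIL149 and no RIL50 libraries 2 lie above it, so leaving out RIL149 generation 3 lineage 2 puts line-specific members there too. The VIM pair lies between the RIL149-specific region at PAO4 and the RIL50-specific region at MYB113, which are 264.579 kb apart with 57 members between them.

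**Figure D3:**
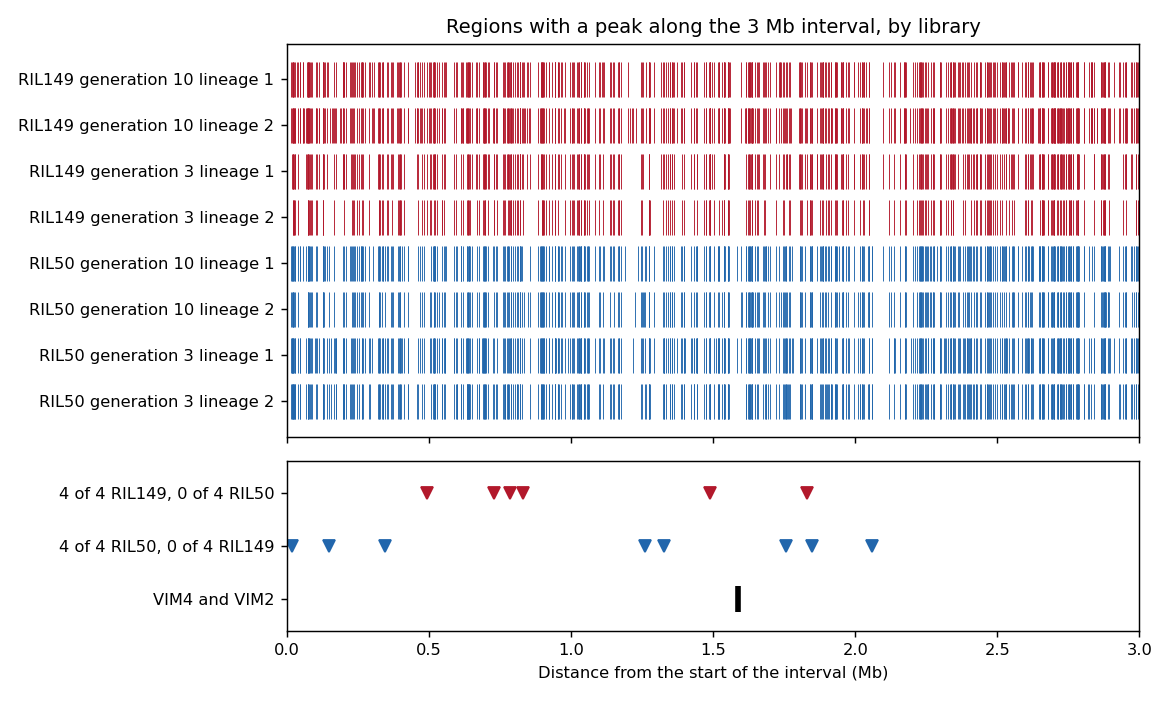
Regions with a peak in each library (upper panel, vertical lines, RIL149 above RIL50) and the 14 line-specific regions with VIM4 and VIM2 (lower panel), by distance in Mb from the start of the interval. Gaps fall at like places in most libraries, and the RIL149 generation 3 lineage 2 row is the thinnest.

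Along the interval, windows of 500 kb differed in the number of regions and in how many were common to all libraries. From low to high coordinates the 6 windows held 113, 124, 91, 114, 105 and 134 regions, and 33.6%, 38.7%, 44.0%, 38.6%, 44.8% and 44.0% of these were in all 8 libraries. RIL149 libraries held a mean of 64.8% of the regions in the first window and 69.4% in the last, and RIL50 libraries 63.3% in the first and 71.3% in the last. In every window the ranges of RIL149 and RIL50 libraries overlapped. The first window was the only one in which the RIL149 mean of 73.25 ± 22.2 regions was above the RIL50 mean, 71.5 ± 12.1 (SD, n = 4 each), a difference smaller than either SD.

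At 100 kb the interval had a median of 23 regions per window in its 30 windows, against 22 in 1158 windows over the rest of the nuclear genome. Its densest window was 25700001 to 25800000 with 35 regions. The sparsest, with 13 regions each, were 24100001 to 24200000 and 25100001 to 25200000. The longest stretch without any region, 37.091 kb from 25058491 to 25095581, begins where the last line-specific region ends and holds CYP735A2, an enzyme that makes trans-zeatin cytokinins, and AT1G67120. The next longest were 27.651 kb from 23855763 to 23883413 and 26.39 kb from 23559350 to 23585739.

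Fewer regions of the interval were common to all libraries than over the genome. All 8 libraries held 276 members (40.5%), against 45.3% of all regions, and 1 library alone held 106 (15.6%), against 12.1% of all regions. In every one of the 8 libraries the share of members held was lower than that of the other nuclear regions, by 1.68 to 6.49 percentage points. This comparison of the interval with the rest of the genome was not tested. Members in 8 libraries had a median width of 515.5 bp and a median fold of 5.98, against 149.5 bp and 2.54 for members in 1 library. The counting rule favours both differences. A region joined from several peaks is at least as wide as each of them. One held by 8 libraries also had to pass the threshold in the shortest list.

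**Figure D4:**
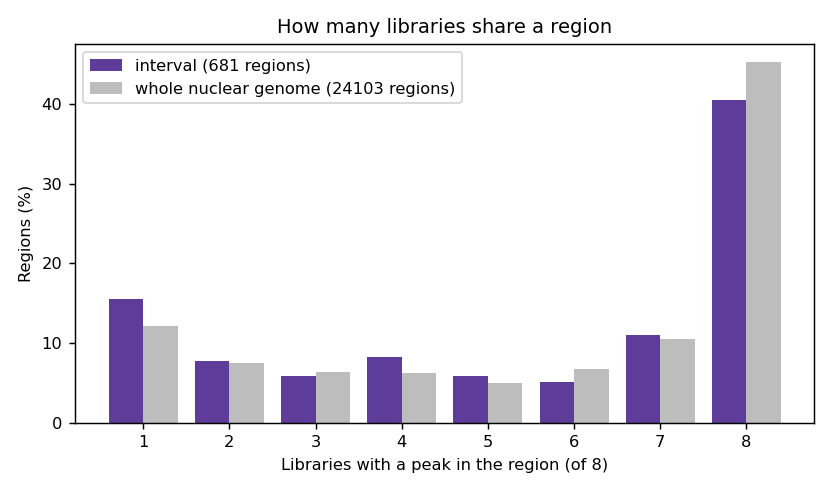
Share of regions (%) by the number of libraries, of 8, that have a peak in them, for the interval (dark bars) and the whole nuclear genome (grey bars). The interval has 15.6% of regions in 1 library and 40.5% in 8, against 12.1% and 45.3% over the genome.

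Of the regions common to all libraries, the 5 with the highest value of their lowest fold are given here. Other regions can exceed them in single libraries. The region with the highest fold in any library, at 23506708 to 23507420 over AT1G63390 and beside AT1G63400, had 26.8, 26.5, 26.6 and 19.4 in RIL149 (generation 10 lineages 1 and 2, then generation 3 lineages 1 and 2) and 14.98, 19.3, 22.04 and 14.97 in RIL50. It was at percentile 97.7 or above in every list, and 3 RIL149 values lie above all RIL50 values. AT1G64590, at 23995317 to 23996216, had 19.4, 20.8, 19.2 and 15.9 in RIL149 and 20.6, 23.4, 25.97 and 19.8 in RIL50. Here 2 RIL50 values lie above the highest RIL149 value and the others within its range.

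AT1G66180, at 24647640 to 24648717, was even across libraries, with 17.8, 17.2, 17.6 and 18.4 in RIL149 and 16.02, 18.2, 19.3 and 18.4 in RIL50. The region at 25940975 to 25941752 over the transfer RNA gene AT1G69000 and BIM2, a brassinosteroid-signalling factor, had 19.0, 20.1, 18.6 and 18.2 in RIL149 and 18.7, 18.9, 19.7 and 19.1 in RIL50, so all 8 values lie within a narrow band. The region at 23801759 to 23802604 over the transfer RNA gene AT1G64120 and DAA1 ranged from 15.1 to 18.7 in RIL149 and from 17.2 to 21.4 in RIL50. The widest members were 1715 bp at 25710825 to 25712539 over AT1G68526, 1685 bp at 25996163 to 25997847 and 1642 bp at 23921904 to 23923545 over AT1G64405, and all 8 libraries held each of them.

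The 68 genes of 10 gene lists were counted for peaks at gene ends. Neighbouring genes can share a peak, as RPF2 and AT1G62680 do, and it then counts for each. Of the 68 genes, 23 had such a peak in all 8 libraries, 28 in 1 to 7 and 17 in none, against 256 of 745 protein-coding genes of the interval (34.4%) and 43.8% of genes over the genome with a peak in all 8. RIL149 libraries had a mean of 38.25 and RIL50 libraries of 34.75 of the 68 genes.

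Genes of flowering time and light response were open in every library or in none. FKF1 (a blue light receptor), AP1 (a floral meristem identity gene), TEM2 (a repressor of flowering), BBX14 and BBX27 had a peak in all 8 libraries, and FT, the mobile flowering signal, in none. FKF1 had folds of 12.8, 15.1, 10.2 and 8.05 in RIL149 and 11.4, 13.1, 13.9 and 12.7 in RIL50. Of the silencing and chromatin genes, LDL1, a histone demethylase, and FAS1 had a peak in all 8, and NRPD1, the largest subunit of RNA polymerase IV, in 4 RIL149 and 3 RIL50 libraries, with folds of 2.62, 3.01, 3.28 and 2.22 in RIL149 and 2.65, 3.81 and 3.31 in RIL50. The RIL50 library without a peak at NRPD1 was generation 10 lineage 2.

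Of 6 photosynthesis and chloroplast genes, 3 had a peak in all 8 libraries. RBCS1A, the small subunit of Rubisco, had folds of 14.4, 16.8, 14.5 and 13.8 in RIL149 and 13.3, 15.96, 13.97 and 14.1 in RIL50, and HPR1, of photorespiration, and PnsB2, of the chloroplast NDH complex, were the other two. PSBY was held by 3 RIL149 and 4 RIL50 libraries, CLPP3 by 3 and 2, and VIPP1 by none. Of 4 genes of root and pollen development, RHD6, EXPA18 and ACOS5 had no peak in any library, and ASY1, a meiotic axis gene, had one in all 8. Of 5 shoot genes, AS2, a leaf polarity factor, had one in all 8, YDA, a MAP kinase kinase kinase, in 2 RIL149 and 1 RIL50 libraries, STM, the shoot meristem homeobox gene, in 1 RIL149 library, and JAG and PAN in none. Of 3 hormone genes the ethylene receptor ETR1 was held by 2 RIL149 and 1 RIL50 libraries, the DELLA repressor RGL1 by 3 and 4, and ARR11 by none.

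Among the lists, that of immune genes had the widest difference of line means, 11.25 genes in RIL149 and 8.75 in RIL50 libraries. This ranks raw counts of lists that hold 2 to 17 genes. The same means over all genes are not given here, and the difference was not tested. Of 14 genes, 6 had an end peak in all 8 libraries and 8 in 1 to 7. RIL149 libraries had 12 and 13 at generation 10 and 12 and 8 at generation 3, against 8 and 10 at generation 10 and 9 and 8 at generation 3 in RIL50. The lowest RIL149 value, in its shortest list, overlaps the RIL50 range. AT1G63350 was held by 4 RIL149 and 0 RIL50 libraries, AT1G63360 by 4 and 2, AT1G63880 and AT1G65850 by 3 and 0 each, AT1G62630 by 1 and 0, NPR1, the salicylic acid receptor, and AT1G63750 by 3 and 4 each, and AT1G66090 by 0 and 1. At AT1G63360 the folds were 7.21, 7.04, 5.30 and 4.50 in RIL149 and 3.34 and 2.68 in the RIL50 libraries of generation 10 lineage 2 and generation 3 lineage 1. RBOHF, the NADPH oxidase of the oxidative burst, and RLM1 were among the 6 in all 8. These receptor genes have near copies beside them, so the placement of reads is uncertain, and its part in the differences was not tested.

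Of 17 genes of the RFL pentatricopeptide repeat cluster, which encode RNA-binding proteins of organelles, 4 had a peak in all 8 libraries, 9 in 1 to 7 and 4 in none. RIL149 libraries had 9 and 12 at generation 10 and 6 and 4 at generation 3, and RIL50 libraries 8 and 6 at generation 10 and 7 and 6 at generation 3. RPF3, AT1G63070 and AT1G63230 were held by both RIL149 generation 10 libraries and no other, and RPF2 by 3 RIL149 and 4 RIL50 libraries. The spread within RIL149 spans that of RIL50. These genes too are near copies of each other.

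Anthocyanin and glucosinolate genes had peaks in more RIL50 than RIL149 libraries in 3 of the 8 genes. These 3 are MYB genes that lie side by side. How reads that match several places were treated is not given in the sources used here, so their placement is uncertain. MYB113 was held by 3 RIL149 and 4 RIL50 libraries, its neighbour MYB114 by 1 and 3 and MYB90 by 0 and 1, whereas FMO GS-OX4, an enzyme of aliphatic glucosinolate side chains, was held by 3 and 2. At MYB114 the fold was 2.89 in RIL149 generation 3 lineage 1, against 3.34 in RIL50 generation 10 lineage 2 and 3.81 and 4.23 in RIL50 generation 3. FMO GS-OX1 had folds of 5.85, 8.83, 5.63 and 3.25 in RIL149 and 10.3, 11.6, 11.5 and 5.75 in RIL50, in each case a peak in all libraries. EGL3, FMO GS-OX2 and FMO GS-OX3 had no peak at a gene end.

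Between the lines, no measure of the whole interval differed beyond the spread between libraries. RIL149 libraries held 513 and 564 members at generation 10 and 428 and 310 at generation 3, and RIL50 libraries 489 and 407 at generation 10 and 509 and 479 at generation 3. RIL149 averaged 453.75 ± 111 and RIL50 471 ± 44.5 (SD, n = 4 each; difference −17.25, two-sided exact permutation p = 0.829, the smallest possible being 0.0286). Without RIL149 generation 3 lineage 2 the difference was 30.7. The share of each list's nuclear peaks that lay in the interval was 2.69 ± 0.0466% in RIL149 and 2.67 ± 0.0868% in RIL50 (exact permutation p = 0.771), and peaks covered 159 ± 43.0 kb in RIL149 and 172 ± 24.9 kb in RIL50 (exact permutation p = 0.714). The Benjamini-Hochberg adjusted p over the 6 tests of the interval was 0.829 for each.

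As over the genome, more members leaned to RIL50 than to RIL149, counting any excess of libraries, even 1 against 0. More RIL149 than RIL50 libraries held 149 members (21.9%, against 18.4% of all regions). More RIL50 libraries held 202 (29.7%, against 27.2%), and equal numbers held 330 (48.5%, against 54.4%). Of the 202, 59 were held by 3 RIL149 and 4 RIL50 libraries (8.66%, against 8.67% of all regions). The reverse, 4 RIL149 and 3 RIL50 libraries, was found in 16 members (2.35%, against 1.90%). RIL149 generation 3 lineage 2 has the shortest list, and the part of list length in these counts was not tested. Pairs of libraries of the same line shared 73.1 ± 8.62% of the members that either held (Jaccard index, SD over 12 pairs) and pairs of different lines 68.9 ± 5.50% (16 pairs). Over all regions these means were 75.4% and 72.5%. Pairs share libraries, and this difference was not tested.

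Between the generations, too, no measure of the whole interval differed beyond the spread between libraries. Generation 10 libraries held 493.25 ± 65.5 members and generation 3 libraries 431.5 ± 87.6 (SD, n = 4 each; difference 61.75, exact permutation p = 0.343), with shares of 2.67 ± 0.0803% and 2.69 ± 0.0561% (exact permutation p = 0.657) and 176 ± 28.2 and 155 ± 38.7 kb (exact permutation p = 0.457). The difference in members held was 21.25 without RIL149 generation 3 lineage 2. The adjusted p was again 0.829 for each.

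The change by generation 10 ran in opposite directions in the 2 lines. Generation 10 minus generation 3 was 85 and 254 members in RIL149 lineages 1 and 2, and −20 and −72 in RIL50 lineages 1 and 2. The share of nuclear peaks changed by 0.0826 and 0.0784 percentage points in RIL149 and by −0.115 and −0.139 in RIL50. With 2 lineages a line the exact permutation test of this difference cannot give p below 0.333, which is the value obtained for both. List lengths over the whole genome moved in the same directions, from the totals given above, and their part in the change of members held was not tested.

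**Figure D5:**
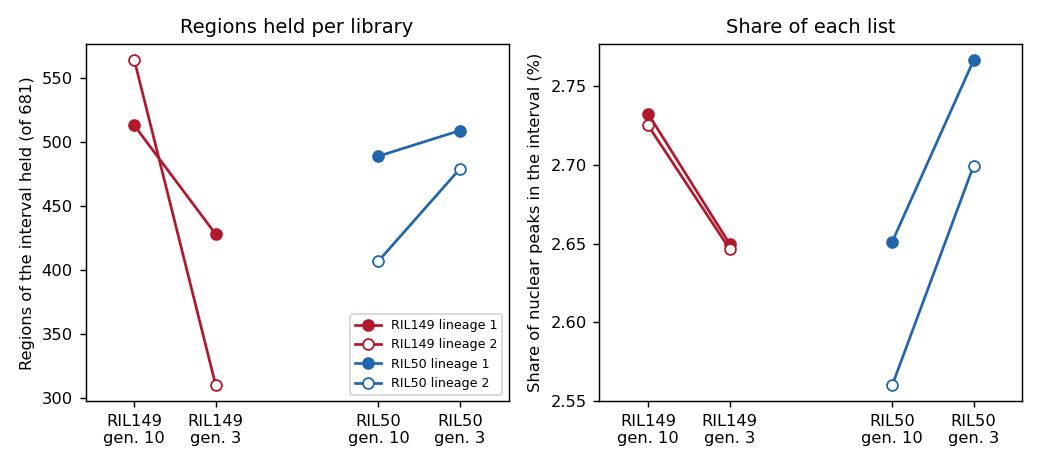
Regions of the interval held by each library (left) and the share of each library's nuclear peaks that lie in the interval (right, %), with generation 10 left of generation 3 and a line joining the libraries of a lineage. Neither vertical axis starts at 0. Both lineages of RIL149 are higher at generation 10 and both of RIL50 are lower.

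Regions that followed generation were rare. Just 2 members were held by all generation 10 and no generation 3 libraries (0.294%, against 0.328% of all regions), and 0 by all generation 3 and no generation 10 libraries (against 0.0166%, or 4 regions). The region at 25127142 to 25127334 in AT1G67170 had folds of 3.29 and 3.38 in RIL149 and 1.91 and 3.85 in RIL50, and that at 25999810 to 26000127 in AT1G69160 had 2.91 and 2.50 in RIL149 and 1.95 and 2.48 in RIL50. Without RIL50 generation 10 lineage 2 there were 7 such members (1.04%, against 0.892% of all regions), and without RIL50 generation 3 lineage 1 there were also 7 (1.06%, against 0.784%).

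Regions found in exactly the 2 libraries of 1 lineage, like the one beside VIM4, numbered 7 (1.03%, against 0.892% of all regions). Of these, 5 were in RIL50 lineage 1 and 2 in RIL149 lineage 1, and the lineages numbered 2 had 0. The 215 such regions over the genome were divided in the same order. RIL50 lineage 1 had 125, RIL149 lineage 1 had 54, RIL50 lineage 2 had 22 and RIL149 lineage 2 had 14. Members held by exactly 2 libraries were 1.75 per pair for the 4 pairs of 1 lineage, 3.875 for the 8 pairs of a line but different lineages, and 0.9375 for the 16 pairs of different lines. Over all regions these were 53.75, 109.75 and 45 per pair, in the same order of size. Of the 31 members in the second kind, 19 were held by the 2 RIL149 generation 10 libraries, as were 466 of 878 over all regions.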

How the data were processed

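Nuclei of shoots were tagmented for 30 min at 37 °C and sequenced as paired 150 bp reads, per the labels' protocols. The submitters' processing notes name MACS2 2.2.9.1, BWA 0.7.17, Trimmomatic 0.39, Picard and the build TAIR10, without roles. Not given in the sources used here are read shifting for Tn5, mapping quality and the treatment of reads with several matches. Reads of Ler and Cvi alleles were placed on the Col-0 reference, so sequence differences can weaken or remove a peak.

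The deposited files are 8 peak lists, called per library. Per the file headers and format, the deposited signal value is the authors' fold (a ratio over local background), p and q are deposited as −log10 values, and the deposited score is an integer made from q. Every deposited peak passes q of 0.05. No read totals are given, so depth is unknown.

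Peaks were merged in Python 3.11.15 with pandas 2.3.3 (checked against bedtools 2.31.1 and on simulated data), with touching peaks kept apart. Groups are from the labels, although the deposited lists are named with generations that are off by 1 from the labelled ones. Tests between libraries were exact permutation tests, two-sided, over the 70 arrangements, with Benjamini-Hochberg adjustment over 6 tests. Gene names are from a RefSeq table of TAIR10.1. In 6 of 6 windows of 500 kb the overlap of regions with gene ends was highest at an offset of 0 bp, and no gene coordinate is printed.

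Lineage, a shared descent given by the labels, pairs generation 10 with generation 3. In 3 of the 4 lineages the sublineage number differs between the generations. The correlation of deviations within a lineage over members was 0.00732 in RIL149 and −0.0521 in RIL50. Members and gene lists were chosen with earlier results of these data known. Regions were named by rule: line-specific and generation-specific ones, those nearest to the VIM genes, the 5 with the highest lowest fold and the 3 widest. The 3 further regions named beside the VIM pair and the genes with end peaks in 1 line were chosen after their values were seen. Distances count the bases between 2 features. Alternatives were filters on −log10 q and fold, lists of equal length, an overlap of 50 bp, other interval limits, the block and leaving out each library.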

Additional observations from a re-analysis of the deposited data

Results flagged for a closer look

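The change by generation 10 went one way in both lineages of RIL149 and the other way in both lineages of RIL50. In members held, the mean change was 169.5 in RIL149 and −46 in RIL50, a difference of 215.5. In the share of nuclear peaks that lie in the interval, the mean change was 0.0805 percentage points in RIL149 and −0.127 in RIL50, a difference of 0.208. The exact permutation p of both differences was 0.333, the smallest that 2 lineages a line allow. Kilobases covered did not divide the lines in this way, with 33.95 and 95.9 in RIL149 against 0.681 and −48.5 in RIL50.

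In 4 of 42 groups of 4 values, 1 value stood apart from the other 3 by Dixon's criterion, and chance gives about 1 in 20. For folds this compares lists of different lengths within a line. RIL50 generation 10 lineage 2 covered 134.5 kb of the interval with peaks, against 183.0 to 185.3 kb in the other RIL50 libraries. The region near WRKY6 had a fold of 5.46 in RIL50 generation 3 lineage 1, against 2.40 to 2.83 in the others. The region over AT1G67105 had 8.24 in the same library, against 5.29 to 5.57. The region over AT1G63390 had 19.4 in RIL149 generation 3 lineage 2, against 26.5 to 26.8 in the other RIL149 libraries.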

How the results depend on the processing

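Of 152 values under alternatives, 125 were labelled the same, 16 counts moved and 11 differences changed sign. Differences were the same if they kept their direction and their side of the threshold. Counts only had to stay within a fixed factor, so 12 RIL50-specific members passed as the same as 8. Distances had to stay within the spread between libraries. None of 90 repeated tests reached 0.05, and their lowest p was 0.143. The paired tests among them could not reach it. With lists cut to 13186 peaks each, members held differed by 1 between the lines and by −3.5 between the generations, and there were 3 RIL149-specific (0.655%, against 1.10% of all regions), 5 RIL50-specific (1.09%, against 1.297%), 0 generation 10-specific (against 0.128%) and 1 generation 3-specific members (0.218%, against 0.25%). Of the 14 line-specific regions, 3 remained so. With a −log10 q of at least 5 there were 2 RIL149-specific (0.322%, against 0.692%), 10 RIL50-specific (1.61%, against 0.829%) and 1 generation 10-specific members (0.161%, against 0.304%), and 9 of the 14 line-specific regions remained. With a fold of at least 2, all 14 remained and generation 10-specific members were 0 (against 0.328%). From 22 to 27 Mb the share of nuclear peaks differed by −0.0246 between the lines and 0.00658 between the generations, with 12 RIL149-specific (1.00%, against 0.705%), 14 RIL50-specific (1.17%, against 0.888%) and 5 generation 10-specific members (0.418%, against 0.328%). From 24 to 25 Mb these were −0.0148 and 0.00425, with 2 (0.976%), 4 (1.95%) and 0 members against the same shares of all regions. Leaving out each library gave differences between the lines of −53.7 to 30.7 members, −0.0172 to 0.0516 in share and −25.3 to 6.64 kb. Between the generations it gave 21.25 to 90.5 members, −0.0452 to 0.0123 in share and 2.66 to 34.3 kb. It gave 6 to 19 RIL149-specific, 8 to 12 RIL50-specific and 2 to 7 generation 10-specific members. The highest values among these counts came without RIL149 generation 3 lineage 2, RIL149 generation 10 lineage 2 and either RIL50 generation 10 lineage 2 or RIL50 generation 3 lineage 1. The shares over all regions moved with them: 19 is 2.79% against 1.63%, 12 is 1.88% against 1.49%, and 7 is 1.04% against 0.892% or 1.06% against 0.784%. The share by line changed sign without RIL50 generation 10 lineage 2, and the share by generation also without RIL50 generation 3 lineage 1 (0.00185). The causes were not tested. With lineage as a block, the paired difference by generation was 61.75 members (exact sign-flip p = 0.625). With 4 pairs that test cannot give p below 2 in 16, so pairing could not have brought any p under 0.05. List length and unknown depth limit every absence, and a region missing from a short list may lie under the threshold there.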
